A study of Mus musculus with 54 samples.

Results

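T lymphocytes of the mouse small intestine were taken here as single cells that passed a gate on transcripts, 2438 of 9156 cells kept. A kept cell had at least 500 detected genes, at least 1000 unique molecular identifiers (UMIs, each marking 1 captured RNA molecule) and under 25% of its UMIs on mitochondrial genes. A kept cell passed the gate when at least 3 of 9 genes (Cd3d, Cd3e, Cd3g, Cd7, Cd8a, Gzma, Gzmb, Ccl5 and Ptprc) had a UMI and the epithelial genes Epcam, Krt8 and Krt18 together held under 0.2% of its UMIs. The members were thus chosen by measured transcript counts, those of the 9 gate genes and 3 epithelial genes. The gate reads the same counts as the results, so the levels of its genes, and of all genes against the cells outside it, are a description and were not tested.

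The series holds 54 samples, of which 4 were measured by single-cell RNA sequencing on the 10x Genomics Chromium and enter here. They were separated intestinal cells from the small intestine of mice 12 months old, of strain C57BL6/2J per the labels. Each genotype, wild type (WT) or miR-375 knockout (KO), gave 1 sample in set 1 and 1 in set 2. All 4 groups of cells share strain, age and tissue, and the labels give neither the number of animals behind a sample nor how the knockout was made. miR-375 is a microRNA, a short RNA that represses messenger RNAs carrying sites that pair with it, and its 64 base gene lies at chr1:74900658-74900721 (GRCm38.p6, minus strand). Its mature form is not read by this assay, so the knockout is not checked here.

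The T lymphocytes of the intestinal epithelium, called intraepithelial lymphocytes, lie between enterocytes, kill infected or stressed epithelial cells with granzymes, and stay in the tissue through the integrin pair encoded by Itgae and Itgb7. Conventional cytotoxic cells carry the CD8 alpha and beta chains (Cd8a and Cd8b1) and helper cells carry CD4. Many intraepithelial cells, often called natural, carry CD8 alpha alone and natural killer type receptors that signal through the adaptors FcR gamma (Fcer1g) and DAP12 (Tyrobp), while keeping little of the inhibitory surface proteins CD5 and CD6.

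Levels are given as CPM, UMI counts scaled to 1000000 per summed library. The gated cells of the 2 sets differed in T lymphocyte genes that the gate did not read. Lck, the first kinase of T cell receptor signalling, stood at 444 (WT) and 466 (KO) CPM in the gated cells of set 2, and at 19.0 and 12.7 CPM in those of set 1. In kept cells that failed the gate it stood at 2.13 and 1.08 CPM in set 2 and at 2.86 and 2.12 in set 1. These levels are a description, as are the values that chose the cells. In set 2 the 9 gate genes held a median of 6.02% of a WT cell's UMIs and 6.28% of a KO cell's, with a median of 8 gate genes detected in both. In set 1 they held a median of 0.0162% (WT) and 0.0255% (KO), with 3 and 4 of the genes detected. The set 1 cells were deep and rich in transcripts of Paneth cells, the crypt cells that secrete defensins and lysozyme. Their median depth was 48928 UMIs (WT) and 32065 UMIs (KO), against 2879 and 2124 UMIs in set 2, and 16 Paneth genes held at least 20% of the UMIs in 52 of 86 WT and 66 of 128 KO cells. In set 2 that was so in 11 of 1416 WT and 5 of 808 KO cells.

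Results are therefore also given for the cells in which the 9 gate genes held at least 0.5% of UMIs, a limit chosen after the values were seen, here called T-rich cells. There were 11 in WT set 1, 12 in KO set 1, 1344 in WT set 2 and 779 in KO set 2, 2146 in all. The share of UMIs on gate genes is a range with no gap at this limit. Between 0.25% and 1% lay 119 cells of WT set 2, of which 40 were below 0.5%, and 76 of KO set 2, of which 15 were below it. The 8 T lymphocyte markers are gate genes, so their sums follow from the limit: 59727 (WT) and 57266 (KO) CPM in the T-rich cells of set 2, 31045 and 18457 in those of set 1. In set 1 cells under the limit Lck stood at 2.86 (WT) and 6.30 (KO) CPM.

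**Figure D1:**
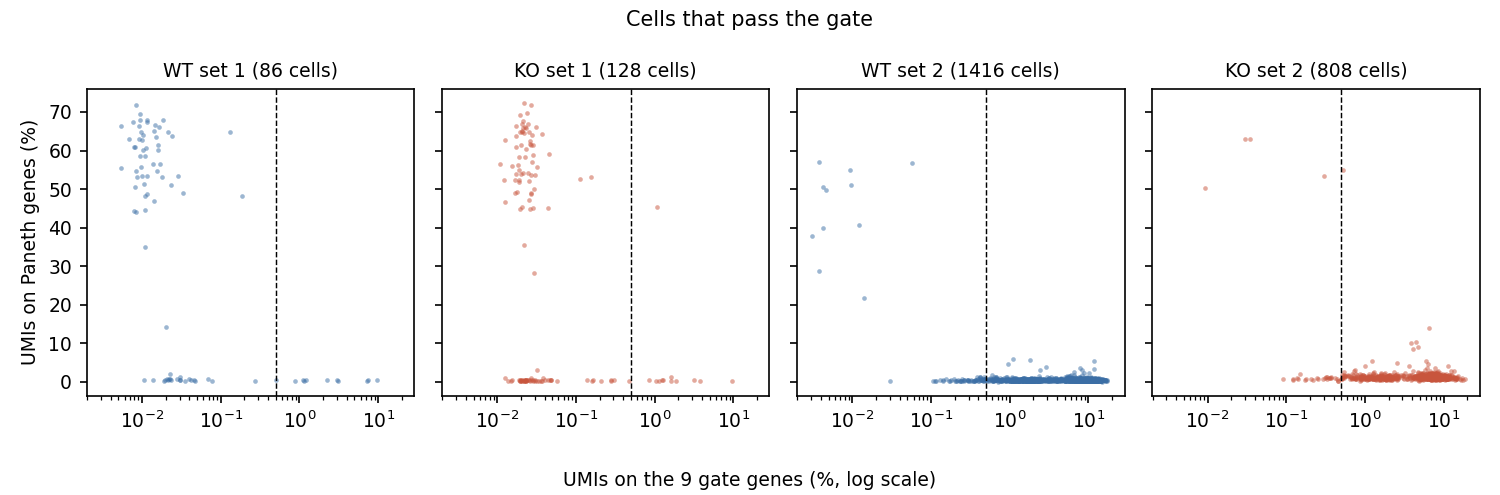
Each point is a cell that passed the gate, by the share of its UMIs on the 9 gate genes (x axis, %, log scale) and on 16 Paneth genes (y axis, %), 1 panel per sample, with WT in blue and KO in red and a dashed line at 0.5%. Most set 1 cells lie left of the line, many of them high in Paneth transcripts, while 1344 of 1416 WT and 779 of 808 KO cells of set 2 lie at or right of it.

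At the gate's own limits, kept cells with exactly 3 gate genes that passed numbered 47 (WT set 1), 48 (WT set 2), 49 (KO set 1) and 26 (KO set 2), and kept cells with exactly 2 gate genes numbered 285, 188, 388 and 85. Kept cells with at least 3 gate genes that were refused for epithelial transcripts numbered 80, 83, 127 and 46 in the same order. In set 2, cells just inside that ceiling had a median of 6.43% (WT) and 6.59% (KO) of UMIs on gate genes, and those just outside 4.35% and 2.11%. In set 1 the values on both sides of the ceiling were between 0.0217% and 0.0263%. Barcode sequences shared between libraries were few, 12 between WT set 2 and KO set 2, of which 1 passed the gate in both, and 1 between the set 1 libraries.

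Gzma and Gzmb, which encode granzymes, were in the gate and are the textbook killing genes of these cells, so the sequences in front of their starts are shown, as the 250 bases before the start in RefSeq (GRCm38.p6), 5′ to 3′ on the gene's strand. Capitals mark TGTGGT on either strand (ACCACA on the other), the core that Runx factors such as Runx3, a regulator of cytotoxic T lymphocytes, are known to bind. Gzma lies on the minus strand and its window is chr13:113100982-113101231, and that of Gzmb, also on the minus strand, is chr14:56262335-56262584.
Gzma: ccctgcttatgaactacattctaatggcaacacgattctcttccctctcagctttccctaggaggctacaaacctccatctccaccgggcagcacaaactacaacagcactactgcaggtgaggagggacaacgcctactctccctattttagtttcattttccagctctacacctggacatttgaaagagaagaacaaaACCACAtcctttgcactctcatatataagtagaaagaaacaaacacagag
Gzmb: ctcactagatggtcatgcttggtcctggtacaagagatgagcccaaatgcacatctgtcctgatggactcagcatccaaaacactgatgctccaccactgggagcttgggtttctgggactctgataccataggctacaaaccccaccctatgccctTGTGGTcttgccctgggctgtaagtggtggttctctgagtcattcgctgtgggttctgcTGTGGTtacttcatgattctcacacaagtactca
The motif stood 1 time in the Gzma window and 2 times in that of Gzmb. Of the 9 gate genes 7 matched the table, and these 2 of the 7 held it, against 14.0% of all 32851 windows of that length. A match is a description of letters, not a bound site.

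The share of kept cells that passed the gate followed the set more than the genotype. It was 7.18% in WT set 1 (86 of 1197 cells, exact 95% binomial interval 5.79% to 8.80%), 10.3% in KO set 1 (128 of 1241, 8.68% to 12.1%), 42.1% in WT set 2 (1416 of 3363, 40.4% to 43.8%) and 24.1% in KO set 2 (808 of 3355, 22.6% to 25.6%). Both set 2 samples were above both set 1 samples, and the genotypes overlapped. The mean was 24.6% ± 24.7 (SD, n = 2) in WT and 17.2% ± 9.74 (SD, n = 2) in KO, a difference of -7.45 percentage points (exact two-sided permutation test over samples, p = 1, where 2 samples against 2 can give no p below 0.333). The difference of KO from WT was 3.13 points in set 1 and -18.0 points in set 2, and it was 10.0 points when WT set 2 was left out. Among T-rich cells the shares were 0.919%, 0.967%, 40.0% and 23.2% in the same order of samples. The shares depend on the mitochondrial ceiling, since the median mitochondrial share over all barcodes was 5.90%, 5.62%, 40.9% and 37.9% in that order. Without that ceiling the gate share was 7.14%, 10.3%, 35.2% and 19.1%. Intervals cover counting error only, and the labels do not say that the samples of a genotype came from separate animals, so p-values measure only the spread between these samples.

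**Figure D2:**
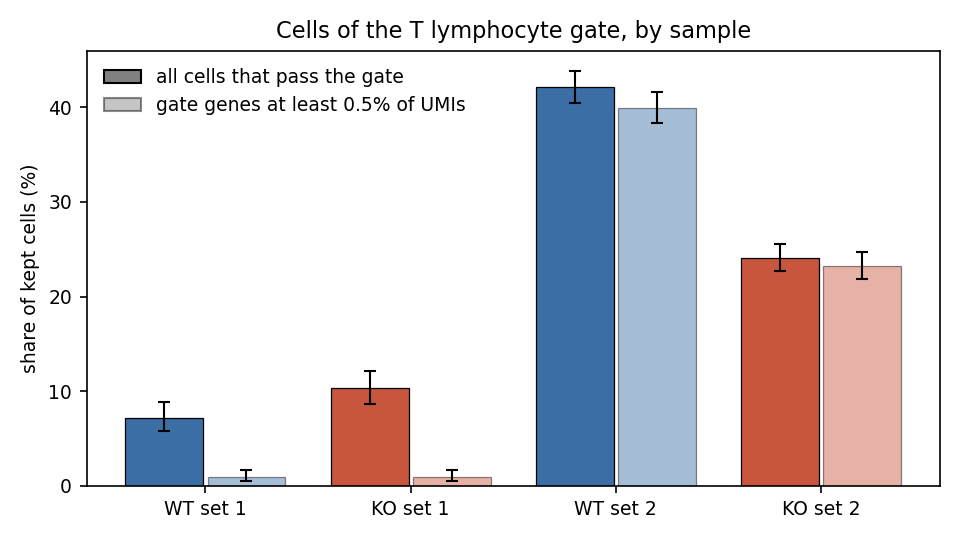
Bars give the share of kept cells (%) that passed the gate (dark) and that were T-rich, with the 9 gate genes at 0.5% of UMIs or more (pale), in each of the 4 samples, with exact 95% binomial intervals. The gate share was 42.1% in WT set 2 and 24.1% in KO set 2, and the T-rich share was under 1% in both set 1 samples.

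Many genes beyond those of the gate were higher in the gated cells of set 2 than in the other kept cells. Of 7800 genes ranked, 654 were at least 10-fold higher in the gated cells of both set 2 samples, and 5 were so in all 4 samples. The ranked genes had at least 20 UMIs in the gated cells of each set 2 sample, a filter that favours genes high in those cells. The 15 genes with the largest smaller fold of the set 2 samples were Xcl1, Apol7e, Tnfsf8, Mei1, Gm19585, Crtam, Gm20069, Actn2, Spp1, Fasl, Gm11707, Gm156, Ckm, Cd200r4 and Cd160. Xcl1, a chemokine that draws cross-presenting dendritic cells, stood at 454 CPM in WT set 2 and 524 in KO set 2, and at 4.70 and 15.1 in WT and KO of set 1. Other kept cells of the set 2 samples had 0.651 and 0.669. For Apol7e in both set 2 samples, and for Tnfsf8, Crtam and Gm11707 in 1 of them, the other cells held at most 3 UMIs. Crtam is an adhesion receptor of cytotoxic cells, Fasl a ligand that triggers cell death, and Cd160 a receptor of intraepithelial and natural killer cells.

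The levels that follow are CPM over the summed UMIs of the T-rich cells, first for WT and KO of set 1, then for WT and KO of set 2. The set 1 values rest on 11 and 12 cells. They are counts of molecules per library total and are compared within a gene, not between genes.

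The CD3 chains carry the signal of the T cell receptor into the cell. Cd3d, Cd3e and Cd3g were gate genes, so their presence follows from the choice of cells and the levels are a description. Cd3g stood at 1509, 695, 4322 and 4792 CPM, higher in both set 2 samples. Cd3d stood at 618, 289, 1200 and 1291, and Cd3e at 849, 352, 728 and 730. After thinning each cell to 1000 UMIs, Cd3g had a UMI in 96.4% of WT and 96.8% of KO T-rich cells of set 2, against 1.68% and 1.19% of the epithelial cells of the same samples, whose median depths before thinning were 24331 and 16625 UMIs. Cd247, the zeta chain, which the gate did not read, stood at 112, 67.5, 121 and 84.4 CPM.

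Transcripts of the cytotoxic granule were detected in all 4 samples, and Gzma, Gzmb and Ccl5 are gate genes. Gzma, the granzyme A gene, stood at 14007, 5499, 13640 and 12606 CPM, lowest in KO set 1. Gzmb, granzyme B, stood at 618, 724, 3314 and 2775. In both cases the set 2 samples lay close to each other, and they did so too for the granule genes Nkg7 (2745 and 2660), Srgn (1332 and 1390) and Ctsw (652 and 721). Prf1, which encodes the pore protein perforin, was low in set 2, at 22.2 (WT) and 12.2 (KO) CPM. Ccl5, the chemokine RANTES, was at 9263, 9421, 32156 and 30542 CPM. Of the cytotoxic list's 14 genes, 11 had at least 50 UMIs over the T-rich cells of set 2, and none of these was 2-fold apart between the 2 samples, against 3.67% of all genes with as many UMIs. A list of 11 genes is too short to be told from that share, and Gzma and Gzmb, which the gate read, are among them.

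Genes of residence in the epithelium were present, and S1pr1 and Ccr7, genes of circulating T lymphocytes, were low. Itgae, the integrin that binds E-cadherin on enterocytes, stood at 204, 140, 557 and 607 CPM. Ccr9, a receptor for the small intestinal chemokine CCL25, stood at 196, 101, 228 and 199. Rgs1, a brake on chemokine receptors, stood at 842, 222, 2139 and 3234, highest in KO set 2. S1pr1, needed to leave tissues, was at 1.97 and 0.555 CPM in set 2, and Ccr7, a lymph node homing receptor, at 2.71 and 1.11. Klf2, a factor that maintains circulation genes, was at 13.3 and 6.66 CPM in set 2.

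Among transcription factors, Runx3 stood at 319 (WT) and 320 (KO) CPM in set 2, Ikzf2 at 684 and 722, Id2 at 743 and 626, and Tbx21, a driver of the interferon-gamma programme, at 45.9 and 39.4. Some factors that mark other lineages were low: Foxp3, of regulatory T cells, was at 1.97 and 0.555 CPM, and Zbtb16, of innate-like T cells, at 0.740 and 1.11. Gata3, counted here among natural killer or innate lymphoid markers too, stood at 35.0 and 30.5, against 0.579 and 0.260 in cells that failed the gate. Eomes was at 0.494 and 0, and Zfp683, known from resident memory cells, had no UMI in set 2. Bcl11b, which maintains T lineage identity, was at 171 and 84.9, and Runx1 at 73.0 and 27.2. These were the 2 of 17 factors with at least 50 UMIs that were at least 2-fold lower in the KO sample, against 2.00% of all genes. Bcl11b is also expressed outside the gate, at 42.7 and 39.9 CPM in the cells that failed it.

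Summed cell cycle transcripts were lower in the T-rich cells of set 2 than in cells outside the gate. Mki67, a marker of dividing cells, stood at 23.9 (WT) and 22.2 (KO) CPM in the T-rich cells of set 2, and at 98.2 and 53.1 in those of set 1. Of 15 cell cycle genes, 14 had at least 50 UMIs in set 2 and none was 2-fold apart between the samples, against 3.67% of all genes. The summed level of the 15 genes was 902 (WT) and 740 (KO) CPM in T-rich cells, and 1570 and 1352 in cells that failed the gate. Singly, 4 of the 15 in WT and 2 in KO were higher in T-rich cells. Mcm6 was 1 of these, at 55.5 (WT) and 34.4 (KO) CPM against 29.7 and 26.3.

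Coreceptor transcripts divided the set 2 cells into a large group with Cd8a alone and smaller groups with Cd8b1 or Cd4. The smaller groups had lower shares in the KO sample. Cd8a is a gate gene and Cd8b1 and Cd4 are not, so the class sizes depend on the choice of cells and are a description. Shares are of T-rich cells thinned to 1000 UMIs, with exact 95% binomial intervals that cover counting error only. Cd8a without Cd8b1 or Cd4 was found in 59.2% of WT and 69.4% of KO cells, and Cd8a with Cd8b1 in 10.5% and 3.72%. Cd4 without Cd8a was found in 3.20% and 0.513%, Cd4 with Cd8a in 2.75% and 0.257%, and neither Cd4 nor Cd8a in 24.4% and 26.1%. In all gated cells any Cd4 was found in 6.07% of WT set 2 (4.89% to 7.45%) and 1.11% of KO set 2 (0.511% to 2.10%), and any Cd8b1 in 12.5% (10.8% to 14.3%) and 5.07% (3.67% to 6.82%). For these pairs the counting intervals did not overlap. Cells of the neither class include cells whose coreceptor was not detected at this depth: without thinning, 119 of 1344 WT and 95 of 779 KO T-rich cells had neither. Any Cd8a was found in 0.813% (WT) and 0.502% (KO) of epithelial cells thinned alike.

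**Figure D3:**
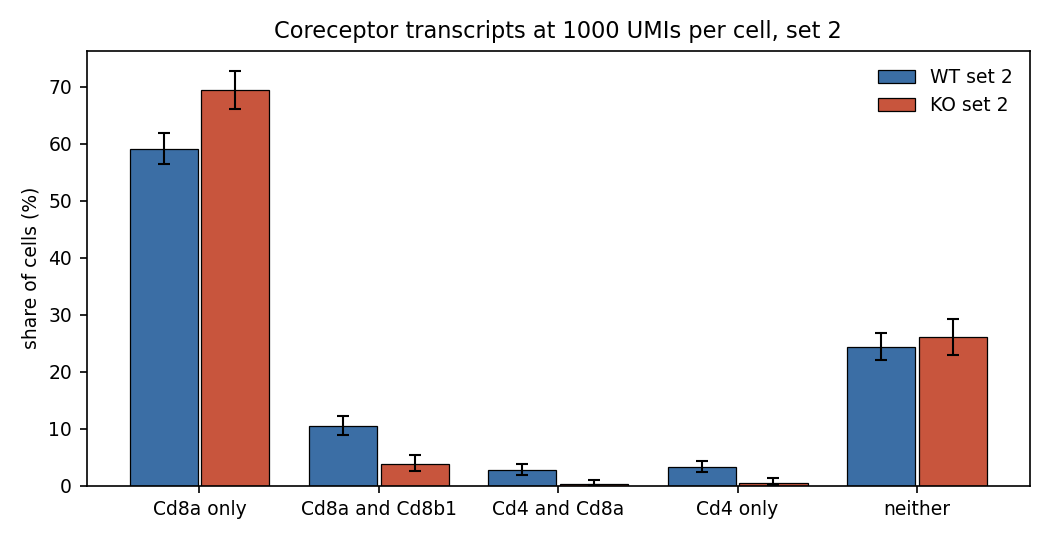
Bars give the share of T-rich cells (%) of WT set 2 (blue) and KO set 2 (red) in each class of Cd4, Cd8a and Cd8b1 detection after thinning to 1000 UMIs, with exact 95% binomial intervals that cover counting error only. Cd8a alone made up 59.2% and 69.4%, and the classes with Cd8b1 or Cd4 beside or without it were smaller in KO set 2. Cd8a is a gate gene, while Cd4 and Cd8b1 are not.

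In set 1 most gated cells had neither coreceptor, 91.9% in WT and 95.3% in KO, and none of the 86 and 128 had a Cd4 UMI after thinning, with exact 95% upper limits of 4.20% and 2.84% for cells with a Cd4 UMI at this depth. Unthinned, 5 of the 86 and 10 of the 128 had one. Over all 4 samples the difference of KO from WT was -2.48 points for any Cd4, -3.51 for any Cd8b1 and 3.70 for Cd8a alone (exact two-sided permutation tests over samples, p = 1 for each of these 3 comparisons before and after Benjamini-Hochberg adjustment, lowest possible 0.333). Without WT set 2 the first 2 turned to 0.557 and 2.16 points. The set 2 difference thus stands between 1 sample of each genotype and was not tested against variation between animals. As the gate read Cd8a, the test on Cd8a alone compares shares that the choice of cells partly set.

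No gene was called between the genotypes in the test over samples, which had no term for set. edgeR's quasi-likelihood test on UMIs summed per sample called 0 of 10790 genes (0% called, 7 at an unadjusted p under 0.05) in all gated cells, and DESeq2 called 0 (9 unadjusted). In T-rich cells edgeR called 0 of 8056 genes (0% called, 62 unadjusted), and in the kept cells that failed the gate 0 of 13337 (118 unadjusted). None of the members of any gene list passed. In all gated cells, the genes with the largest differences that had at least 50 UMIs were, upward in KO, Hba-a1, Hbb-bt, Hba-a2, Hbb-bs and Gm8797, and, downward, Il22ra2, Jchain, Rps18-ps3, Hlf and Klrk1, none of them called (edgeR adjusted p = 1.000 for each).

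Several of these rest on 1 sample. Hba-a1, a haemoglobin chain, had 29 (WT) and 3176 (KO) UMIs in set 1 against 0 and 1 in set 2, and Hbb-bs had 110, 4116, 0 and 2. Jchain, made by plasma cells, had 3402, 27, 6 and 2. The T-rich cells held 0 to 24.1 CPM of Hba-a1, Hbb-bs and Jchain, whose counts sat almost wholly in the other gated cells of set 1.

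With set kept as a block in the fit, the count was 83 of 10790 genes (0.769% called), 29 higher (0.269%) and 54 lower (0.50%) in KO by edgeR's adjusted p. These included 9 genes of the T lymphocyte lists that were lower, Klrk1, Cd5, Cd6, Ifng, Cd8b1, Icos, Cd4, Ctla4 and Ltb, beside H2-D1, and Wdfy1, which was higher. Klrk1, the activating receptor NKG2D, was lower by 2.61 on the log2 scale (edgeR adjusted p = 1.11e-09), with 2, 0, 577 and 39 UMIs in the same order of samples. The set 1 counts of Klrk1 hold little of that difference, and haemoglobin genes, Jchain and the enterocyte genes Fabp1 and Apoa4 are among the 83. In T-rich cells the same fit called 0 of 8056 (0% called, 288 unadjusted). For some genes the log2 difference was about as large: Klrk1 at -2.64 (edgeR adjusted p = 0.240), Cd5 at -2.34 (0.549) and Cd6 at -2.09 (0.549). For others it shrank, as for Ltb, from -0.81 in all gated cells to -0.11 in T-rich cells. It reversed for H2-Aa, from -1.55 to 0.93, and for Cd74, from -0.93 to 1.36. More of the 83 reversed, among them H2-Ab1 (-0.91 to 1.17), Spink4 (-0.98 to 2.32) and AY761184 (-0.72 to 4.56). Others, such as Hba-a1, Jchain and Lyz2, were not tested in T-rich cells.

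The set 2 samples hold nearly all T-rich cells, and there each genotype is 1 library and no test is possible. A gene is called apart here when its level differed at least 2-fold in T-rich cells with at least 50 UMIs over both samples, a rule chosen after the values were seen. Of 8185 such genes, 136 were apart upward (1.66%) and 164 downward (2.00%) in KO set 2, 3.67% in all, and the median difference was -0.08 on the log2 scale.

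Surface inhibitors and signalling genes of the conventional T lymphocyte were among those lower in KO set 2. Cd5, which dampens receptor signalling, stood at 117 (95% Poisson interval 107 to 128, counting error only) against 15 (9.88 to 21.8) CPM, 7.80-fold lower. Cd6, its paralogue, stood at 196 (183 to 210) against 28.3 (21.1 to 37.2), and Lat, the adaptor that receptor kinases phosphorylate, at 298 (281 to 315) against 123 (108 to 141). In set 1 the direction was the same, at 133 and 48.2 CPM for Cd5, 225 and 86.8 for Cd6 and 225 and 174 for Lat in WT and KO. The KO sample of set 1 was lower in other T lymphocyte genes too, such as Cd3g (1509 and 695), and Paneth genes held 14.9% of its T-rich UMIs against 0.329% in WT. By cell the median Paneth share was 0.319% in KO and 0.315% in WT, and 1 of the 12 KO cells reached 20%. The part of Paneth transcripts in the set 1 values was not tested. Lck (566 and 535), the first kinase of the pathway, and Zap70 (239 and 246) lay close together in set 2. Of the 20 signalling genes 6 were at least 2-fold lower in the KO sample (Cd28, Sh2d1a, Lat, Ubash3a, Cd5 and Cd6) and none higher, against 2.00% and 1.66% of all genes. The list's median was -0.28 on the log2 scale, against -0.08 for all genes.

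The coreceptor levels followed their classes. Cd4 was at 64.2 (56.6 to 72.4) against 9.44 (5.50 to 15.1) CPM and Cd8b1 at 211 (197 to 226) against 69.4 (57.8 to 82.7), while Cd8a was at 1668 and 1548. In set 1, Cd4 stood at 28.1 (WT) and 19.3 (KO) from 4 UMIs each, and Cd8b1 at 7.02 and 48.2, opposite to set 2. The low counts of set 1 bound these values only loosely.

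Natural killer type receptors and adaptors differed in both directions. Fcer1g, the adaptor FcR gamma, stood at 1549 (1511 to 1588) in WT set 2 against 2735 (2659 to 2812) CPM in KO set 2, and was detected in 47.6% and 80.4% of cells at 1000 UMIs, against 0.755% and 1.14% of epithelial cells. Tyrobp, the adaptor DAP12, stood at 729 against 1216, and Klrd1, the CD94 receptor chain, at 648 against 1207. Fcer1g, Tyrobp and Klrd1 were thus 1.77-fold, 1.67-fold and 1.86-fold higher in KO set 2, short of the 2-fold rule. In set 1 the KO sample was not higher for these genes, with Fcer1g at 1004 (WT) and 347 (KO), Tyrobp at 470 and 458 and Klrd1 at 196 and 135. Klrk1 went the other way in set 2, at 136 (125 to 148) against 21.1 (14.9 to 28.9). Cd160 (785 and 642), Cd244 (303 and 321) and Klre1 (136 and 135) also lay within 2-fold. Of 12 genes of the list with enough UMIs, Klrb1c and Klra5 were at least 2-fold higher and Klrk1 lower, against 1.66% and 2.00% of all genes.

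Several cytokine genes were lower in KO set 2. Ifng, the cytokine interferon-gamma, stood at 147 (135 to 159) against 31.6 (24.0 to 41.0) CPM in set 2, and at 42.1 and 0 in WT and KO set 1. Ccl4, a chemokine released on activation, stood at 390 against 169 in set 2. Il17a had 73 UMIs in WT set 2 and 0 in KO set 2, at least 10.8-fold lower in KO against a floor of 3 UMIs in that library, and its UMIs in WT were found in 0.446% of cells at 1000 UMIs. Of 10 cytokine genes with at least 50 UMIs, 5 were at least 2-fold lower (Il17a, Areg, Ifng, Ccl4 and Tnf) and none higher, against 2.00% and 1.66% of all genes, with a median of -0.78 on the log2 scale against -0.08. Ccl5 and Xcl1 (586 and 573) were within 2-fold. Of 6 inhibitory and activation receptors with enough UMIs, 2 were at least 2-fold lower in the KO sample, Icos (67.4 and 14.4) and Ctla4 (102 and 36.1). None was 2-fold higher, against 2.00% and 1.66% of all genes. The other 4 were higher in KO by less, among them Tnfrsf9 (48.1 and 88.8) and Lag3 (263 and 265). The median of this list was 0.05 on the log2 scale.

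The lists that follow had at most 1 gene apart each. Over all genes 3.67% were apart and 2.00% were lower in KO, shares from which lists this short cannot be told. No member of the CD3 complex list (5 measured) or of the class I and interferon list (9 measured) was 2-fold apart, and 1 of 11 measured cytokine receptors (Il18r1, 12.6 and 1.11 CPM) and 1 of 11 immediate early genes (Nr4a1, 66.4 and 21.1) was lower in KO. Cd3d, Cd3e and Cd3g of the CD3 list are gate genes, so their levels depend on the choice of cells. H2-D1, a class I molecule, stood at 4047 and 3216 CPM in set 2. In a list of Wdfy1 and genes around Mir375, only Wdfy1 had enough UMIs, at 13.8 (10.4 to 17.9) in WT and 53.3 (43.2 to 65.1) in KO set 2. Its distance from Mir375 was not examined, so it is not taken here as a neighbour of that gene. In the cells that failed the gate Wdfy1 was also higher in KO, at 10.3 and 57.9 CPM. In set 1 the T-rich cells had 14.0 and 19.3.

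**Figure D4:**
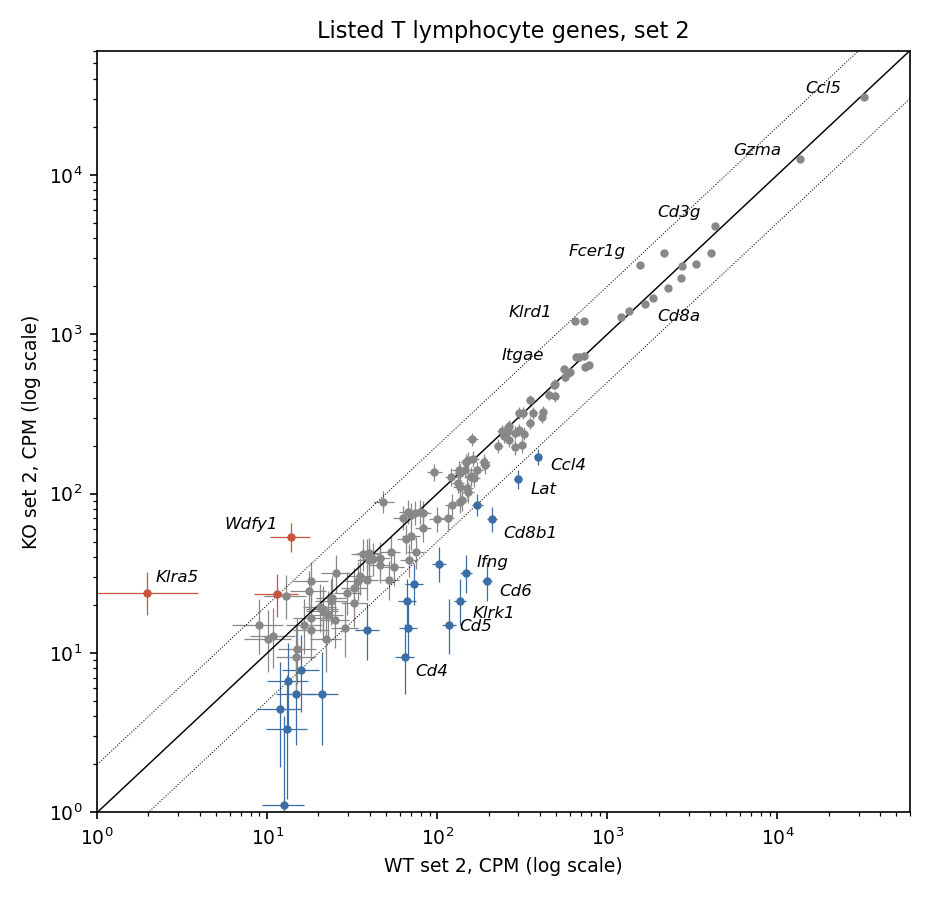
Points give the 145 listed genes with UMIs in the T-rich cells of both set 2 samples and at least 50 UMIs in all, as CPM in WT (x axis, log scale) and KO (y axis, log scale), with 95% Poisson intervals; the solid line marks equal levels, dotted lines 2-fold, red 2-fold higher and blue 2-fold lower in KO. Gzma, Ccl5 and Cd3g lie near the line, while Cd4, Cd5, Cd6, Klrk1 and Ifng lie below it.

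Genes of epithelial cells were also higher in the T-rich cells of KO set 2. All 6 Paneth markers and all 6 enterocyte markers with at least 50 UMIs were at least 2-fold higher there, and none of 7 goblet markers was, against 1.66% of all genes. Summed Paneth markers stood at 3917 (WT) and 21652 (KO) CPM and enterocyte markers at 751 and 2344. Lyz1 stood at 670 and 5276 and Fabp1 at 189 and 843. In the cells that failed the gate Lyz1 was at 4556 and 12334 and Fabp1 at 2575 and 7456 CPM, higher in KO too. The folds were smaller there, 2.71 for Lyz1 and 2.90 for Fabp1, against 7.88 and 4.46 in T-rich cells. The part of these transcripts in the differences above was not tested. Markers of other leukocytes stayed low in both samples: B lymphocyte or plasma markers summed to 33.3 and 53.3 CPM, myeloid to 23.9 and 40.0, and natural killer or innate lymphoid to 55.0 and 54.4. The last sum was 9.19 and 9.29 in cells that failed the gate. In T-rich cells most of it was Gata3 (35.0 and 30.5) and Klrb1c (11.4 and 23.3). Il1rl1 was at 0 in both samples, and Eomes and Il22 were at 0 in KO. Mast markers summed to 91.8 and 89.4, nearly all of it Kit (89.3 and 88.8), while Cma1 was at 0 in both. Stromal markers summed to 14.1 and 19.4.

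Part of the set 2 gap was also seen within a coreceptor class. Classes here are of unthinned T-rich cells of set 2, and median depth in the Cd8a only class was 2979 UMIs in 818 WT cells and 2136 in 623 KO cells. In that class Cd5 stood at 60.9 (51.6 to 71.4) against 3.39 (1.10 to 7.91) CPM, Cd6 at 80.4 against 10.8 and Klrk1 at 214 (196 to 233) against 22.4 (15.4 to 31.4). Gzma (13697 and 14130) and Ccl5 (32806 and 33716) lay close together there. Fcer1g was 2427 against 3100 and Klrd1 995 against 1374, gaps smaller than over all T-rich cells.

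The Cd8b1 class had few KO cells and another profile. Its 228 WT cells held Ifng at 308 (267 to 352) CPM and Fcer1g at 56.2 (39.8 to 77.1), the reverse of the Cd8a only class, where they stood at 85.2 and 2427. Its 50 KO cells held 1 UMI of Ifng, with Fcer1g at 447 (336 to 583), Gzma at 4998 against 12095 in WT and Ccl5 at 13158 against 33906. Cells with neither coreceptor had Fcer1g at 421 (351 to 501) in WT and 1620 (1442 to 1814) in KO, and Cd5 at 207 (159 to 265) and 16.1 (3.33 to 47.2). Across the 3 classes Ifng was lower in KO, and Cd5 was lower in 2 of the 3, with 57.7 (WT) and 124 (KO) in the Cd8b1 class. These are 2 libraries, so the values compare them and not the genotypes.

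**Figure D5:**
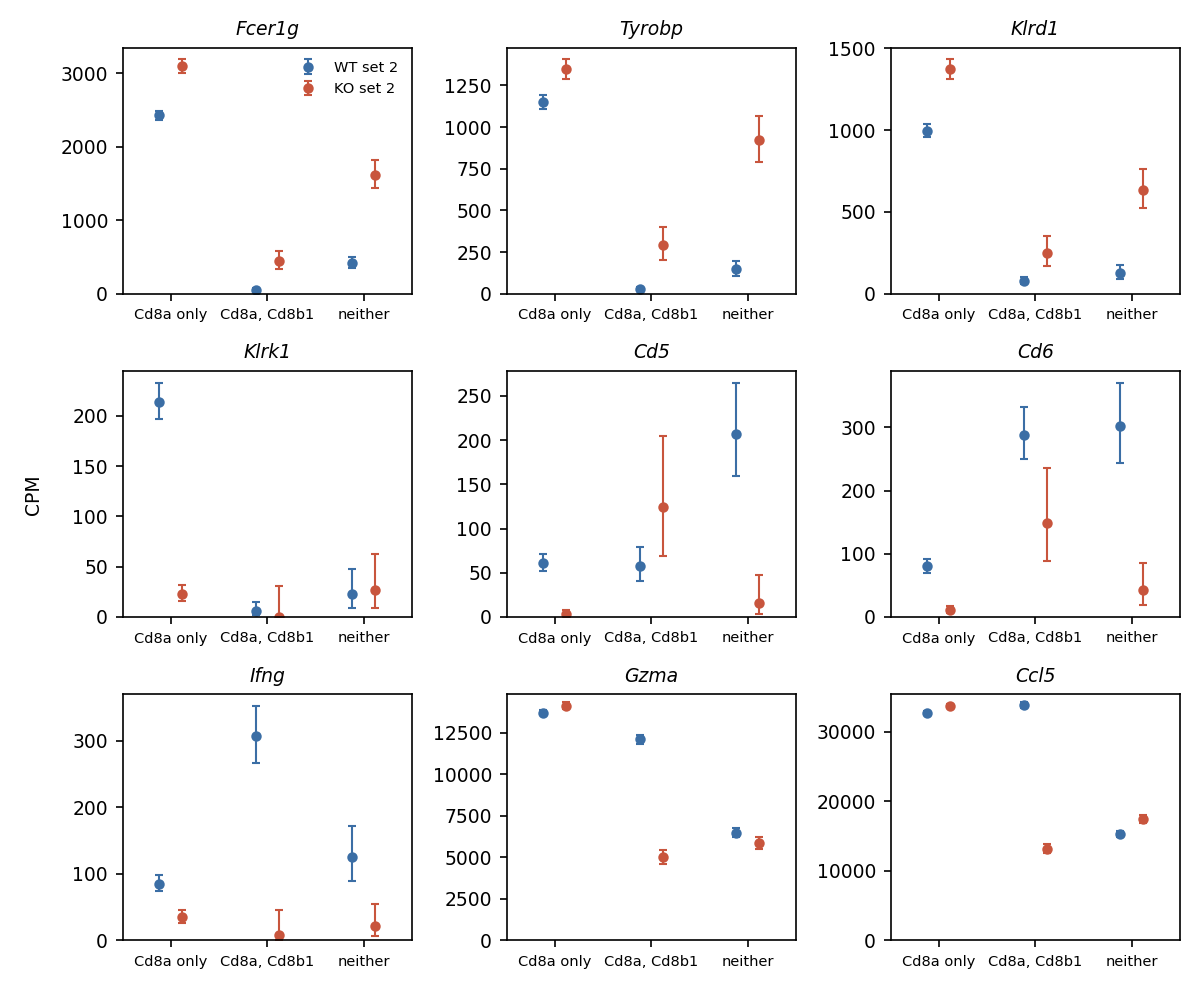
Each panel gives 1 gene's level (CPM, y axis from 0) in T-rich cells of set 2 with Cd8a only, with Cd8a and Cd8b1, and with neither Cd4 nor Cd8a, for WT (blue) and KO (red), with 95% Poisson intervals that cover counting error only. Klrk1 lies in the Cd8a only class of WT, at 214 CPM, and Fcer1g and Klrd1 are highest in the Cd8a only class of both samples.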

How the data were processed

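Single-cell RNA of 4 samples was analysed. The deposited matrices hold raw UMI counts per gene and cell for 27998 genes. Per the submitters' processing notes, mm10 and the tools Cell Ranger, STAR, Salmon and DESeq2 were used in the series, with no role given for each. Software version 3.0.1 stands, per the file headers, in both matrices of set 2 and in neither of set 1. Upstream read filters: not given in the sources used here. Kept cells numbered 1197, 1241, 3363 and 3355 of 1209, 1251, 7711 and 7665 barcodes (WT then KO of set 1, WT then KO of set 2), with 24632440, 24441614, 60594737 and 55919653 UMIs.

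UMIs were summed per sample over cells of the gate and tested with edgeR 4.0.16 (quasi-likelihood, TMM, filterByExpr, Benjamini-Hochberg, call under 0.05) in R 4.3.3. DESeq2 1.42.0, set as a replicate block, other gates, filters and scalings, and leaving out each replicate were alternatives. Set was taken as a possible batch, since it is in the labels and the headers differ by set. The labels do not say what a set is. It entered the fit only as the replicate block, and the main fit held genotype alone. Deviations from the genotype means correlated at 0.887 across 9857 genes between samples of the same set, and at 0.438 across 8351 genes in T-rich cells. On simulated data for the gated cells (10658 genes) edgeR recovered 82 of 98 genes changed 4-fold and 14 of 98 changed 2-fold, with 2 false calls. The simulation held no difference between sets, so this does not show what the fit could detect in these samples, where the SE of Klrk1 was 2.33 on the log2 scale. Scanpy 1.11.5 ran Scrublet, whose own threshold marked 2, 4, 12 and 26 cells in the same order, too few to rely on. As an alternative the highest scores were removed, 0.8% per 1000 barcodes. Other work used Python 3.11.15, numpy 2.4.6, scipy 1.17.1, pandas 2.3.3 and matplotlib 3.10.9.

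Classes by T cell receptor chain had been planned and were not made, because the genes they need were not matched in the tables used here, so classes rest on coreceptors. Named genes are those of the gate and the gene lists, the 15 genes outside the gate with the largest fold over other kept cells in both set 2 samples (at least 20 UMIs in each), and, as none was called, the 5 largest genotype differences each way at 50 UMIs or more. Genes with near-identical copies (haemoglobins, defensins, Gm8797, Rps18-ps3) are uncertain. The members and lists were chosen with earlier results of these data known. Results for a few listed genes are not reported here.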

Additional observations from a re-analysis of the deposited data

Results flagged for a closer look

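The share of kept cells that passed the gate differed between the genotypes in opposite directions in the 2 sets. KO was 3.13 percentage points above WT in set 1 and 18.0 points below it in set 2 (difference -18.0). The difference between the sets was not tested, as each set has 1 sample of each genotype. Most gated cells of set 1 held under 0.5% of their UMIs on the gate genes, and the T-rich share was 0.919% (WT) and 0.967% (KO) there.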

How the results depend on the processing

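The genotype difference in gate share ranged from -8.56 to -6.41 points over 11 other gates, filters and member definitions, and from -24.9 to 10.0 on omitting 1 replicate at a time. Within sets, as a replicate block, it was 3.13 and -18.0. The count of called genes was 0 in 17 alternatives and 83 with set as a replicate block, and 0 in T-rich cells with the same block. Genes 10-fold above other kept cells numbered 5 in all 4 samples, 131 by the mean over cells and 654 in set 2 alone.

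For any Cd4 the difference ranged from -5.52 to 0.557 points without each replicate and was 0 in set 1. For any Cd8b1 it ranged from -9.18 to 2.16, and was 0.400 in set 1 and 0.292 in T-rich cells. For Cd8a alone it ranged from -27.6 to 35.0, and was -3.45 in set 1 and -0.912 in T-rich cells. Within set 2 these were -4.96, -7.43 and 10.8.

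Of 148 values for the 10 named uncalled genes, 128 kept direction and side of the threshold, 10 passed it with the replicate block and 10 reversed. On the log2 scale, Hba-a1 went to -0.16 and Hbb-bs to -0.33 and Hba-a2 to -0.17 at 2 of 9 gate genes, Hba-a1 to -0.14 and Hbb-bs to -0.030 without the highest Scrublet scores. On omitting 1 replicate at a time Hba-a1 ranged from -4.61 to 14.42, Hbb-bt from -3.50 to 12.95, Hbb-bs from -5.64 to 14.80 (each lowest without KO replicate 1), Jchain from -10.62 to 2.78 (highest without WT replicate 1) and Klrk1 from -10.26 to 2.32 (highest without WT replicate 2). The cause was not tested. The T-rich values of set 1 rest on 11 and 12 cells, which limits their precision.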
